A study of Mus musculus with 8 samples.

Results

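The regulators of mitochondrial biogenesis described here are 10 mouse genes: Ppargc1a, Ppargc1b, Nrip1, Nrf1, Gabpa, Esrra, Ppara, Ppard, Pparg and Rxra. They were taken by gene name from the 49315 genes listed in each of 8 RNA sequencing libraries, and each name occurred in all of them. The libraries come from immortalized mouse embryonic fibroblasts (MEFs), a cultured line of connective tissue cells. In 4 libraries the genotype is labelled Opa1-/-, and in the other 4 it is labelled Opa1-/- + OPA1, the same knockout with OPA1 put back. OPA1 is the dynamin-like GTPase that fuses mitochondrial inner membranes and holds the shape of cristae. All 8 libraries therefore carry the Opa1 deletion, no wild-type MEFs were analysed here, and no treatment is listed. The study asked what loss of OPA1 does to the transcriptome. The labels do not say how OPA1 was expressed, whether each line is a single clone, or whether libraries of a group came from separate cultures, so a p-value speaks to the scatter among these libraries alone, and that scatter may be technical.

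Mitochondrial biogenesis in mammals is run from the nucleus. The coactivators PGC-1alpha and PGC-1beta (Ppargc1a and Ppargc1b) do not bind DNA themselves. They dock on DNA-bound factors, namely nuclear respiratory factor 1 (Nrf1), the ETS factor GABP (Gabpa), the orphan receptor ERR-alpha (Esrra) and the fatty acid-sensing PPAR receptors, which pair with RXR. NRF1 and GABP switch on nuclear genes for respiratory chain subunits and for the upkeep of mitochondrial DNA, ERR-alpha switches on genes of the tricarboxylic acid cycle and fatty acid oxidation, and RIP140 (Nrip1) is a corepressor that opposes them.

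In the Opa1-/- libraries Esrra rose to 118% and Nrf1 fell to 85.2% of their mean level in the reconstituted libraries. Ppara, the rarest of the 10, was higher in every Opa1-/- library at very few reads. The coactivators Ppargc1a and Ppargc1b, the corepressor Nrip1, and Gabpa, Ppard, Pparg and Rxra did not pass the test with all 8 libraries. Of the genes that PPARs are known to activate, 11 of 23 tested (47.8%) rose and 3 (13.04%) fell, against 16.3% and 16.8% of all tested genes. Those that rose encode mostly enzymes and carriers of fatty acid breakdown. Their number ran from 7 to 13 over 22 alternative settings, and the list was chosen with earlier results of these data known.

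The stretches of DNA just before the start sites of the 4 genes whose groups did not overlap (Nrf1, Gabpa, Esrra and Ppara) are shown because NRF1 and GABP, both among the 10 regulators, are themselves factors that bind such promoters. Sequences are from RefSeq (GRCm38.p6), 5′ to 3′ on the gene's own strand, and leave out bases that GENCODE annotates as UTR or as exons of the gene. Start sites are those of RefSeq, and the annotated spans given below for Gabpa and Ppara begin upstream of the printed stretches. Capitals mark matches to the NRF1 core GCATGCG or the ETS core CCGGAAG on either strand.
Nrf1 chr6:30047738-30047987 (plus strand): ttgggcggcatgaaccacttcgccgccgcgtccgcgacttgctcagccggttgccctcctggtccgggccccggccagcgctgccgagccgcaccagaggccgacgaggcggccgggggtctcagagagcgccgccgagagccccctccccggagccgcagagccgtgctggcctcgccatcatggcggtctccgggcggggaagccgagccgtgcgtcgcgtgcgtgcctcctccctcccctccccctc
Gabpa chr16:84835024-84835123 (plus strand): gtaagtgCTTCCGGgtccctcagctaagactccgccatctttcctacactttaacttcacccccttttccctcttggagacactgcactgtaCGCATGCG
Esrra chr19:6921814-6922058 (minus strand): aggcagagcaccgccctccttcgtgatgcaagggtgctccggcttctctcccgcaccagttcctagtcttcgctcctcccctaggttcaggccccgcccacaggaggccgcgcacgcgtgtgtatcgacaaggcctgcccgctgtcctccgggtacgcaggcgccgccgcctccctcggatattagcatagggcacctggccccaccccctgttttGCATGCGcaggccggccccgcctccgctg
Ppara chr15:85735714-85735775 (plus strand): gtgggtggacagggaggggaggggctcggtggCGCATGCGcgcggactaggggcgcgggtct

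RefSeq windows reaching from 250 bases before to 50 bases after a start site were at hand for 9 of the 10 genes, 14 windows in all. The NRF1 core was found in 3 of these 14 windows, those of Esrra, Gabpa and Ppara, and in 3.58% of all 32851 windows. In Gabpa and Ppara the match is the palindrome CGCATGCG, in which the core overlaps itself on both strands. Its first base lies 8 bases before the Gabpa start site and 30 bases before that of Ppara, and the Esrra match begins 34 bases before its start site. The ETS core was found in 1 of the 14 windows, 93 bases before the Gabpa start site, and in 8.86% of all windows. The ERR element AAGGTCA occurred in 1 of the 14 windows, 49 bases before the downstream start site of Rxra, against 4.72% of all windows. The cyclic AMP response element TGACGTCA was in none of the 14 and in 1.79% of all windows. A match is a description of letters and not a mapped binding site, and these motifs were chosen after the sequences had been seen.

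Levels are given as scaled TPM, transcript abundance corrected for gene length and library size and then for a scaling factor. The length is that of all annotated exons of a gene together, so comparisons between genes depend on the annotation. Group values are mean ± SD over n = 4 libraries. Differences are Opa1-/- minus Opa1-/- + OPA1 in log2(scaled TPM + 1), a scale that understates the change of low genes, and each adjusted p comes from limma-trend, corrected by Benjamini and Hochberg's method across the 14272 genes that reached 1 TPM in at least 4 libraries. In these bulk samples, fewer cells expressing a gene and less RNA per cell cannot be told apart.

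The libraries held 52.9 M to 57.8 M reads (M, 1000000) as recovered from the steps in TPM, with 14014 to 14551 genes at 1 TPM or more. Opa1 mRNA was 13.9 ± 1.05 scaled TPM in the Opa1-/- and 14.8 ± 0.530 in the reconstituted libraries, a difference of -0.09 (limma adjusted p = 0.306), and its total level therefore does not check the labels. Fibroblast markers were present, 9 of 10 at 1 TPM or more with Pdgfra under it, and their summed level was 2732 to 3029 scaled TPM in Opa1-/- against 3178 to 3250 in reconstituted libraries. Of the 9, 5 were called lower and 1 higher in Opa1-/-, against 16.8% and 16.3% of all tested genes. Among them Col1a1 (difference -0.52), Col1a2 (-0.56), Pdgfrb (-0.45) and S100a4 (-0.84) were lower and Col3a1 (0.42) was higher. The most abundant, Vim, was 1412 ± 108 against 1368 ± 12.0. Of 8 adipocyte markers 2 (Cfd and Plin4) reached 1 TPM, with Lep at 0 and a sum of 3.07 to 4.63 against 2.59 to 3.10. Of 8 muscle markers only Acta1 did, with Myog, Myf5 and Mymk at 0 and a sum of 3.64 to 6.79 against 2.77 to 4.67. Endothelial markers (0 of 6 at 1 TPM) and the leukocyte genes Ptprc and Adgre1 were near 0. Of 8 macrophage markers Cd14 and Cd68 reached 1 TPM, with a sum of 40.6 to 52.8 against 57.6 to 62.3, mostly from Cd14 (43.5 ± 6.34 against 54.4 ± 3.45, limma adjusted p = 0.0332). Of 6 epithelial markers 3 reached 1 TPM, led by Krt18 (170 ± 16.5 against 165 ± 29.4), with a sum of 176 to 213 against 144 to 207. The other 2 were both called higher in Opa1-/-, Cdh1 at 12.9 ± 1.76 against 8.10 ± 0.907 (0.61, limma adjusted p = 0.00206) and Krt8 at 4.61 ± 0.688 against 2.20 ± 0.258 (0.80, limma adjusted p = 0.000590). Fibroblast and epithelial markers beyond Vim and Krt18 are named after their values were seen. The part of these shifts in the results was not tested.

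Among the 10 genes, 9 passed the filter on low values and Ppara did not. In the Opa1-/- libraries 1 of the 9 was called higher (Esrra), where 16.3% of all tested genes were, and 1 was called lower (Nrf1), where 16.8% were. Both shares are near the background. Their median difference was -0.04, against -0.00 over all tested genes. The libraries of the groups did not overlap for 3 of the 9, Esrra being higher and Nrf1 and Gabpa lower in Opa1-/-, against 36.3% of all tested genes in either direction. The Opa1-/- library 4 stood apart from its group, and without it the counts were 3 higher (Esrra, Ppargc1a and Rxra) and 2 lower (Nrf1 and Gabpa), where 18.4% and 19.6% of 13949 tested genes were called.

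**Figure D1:**
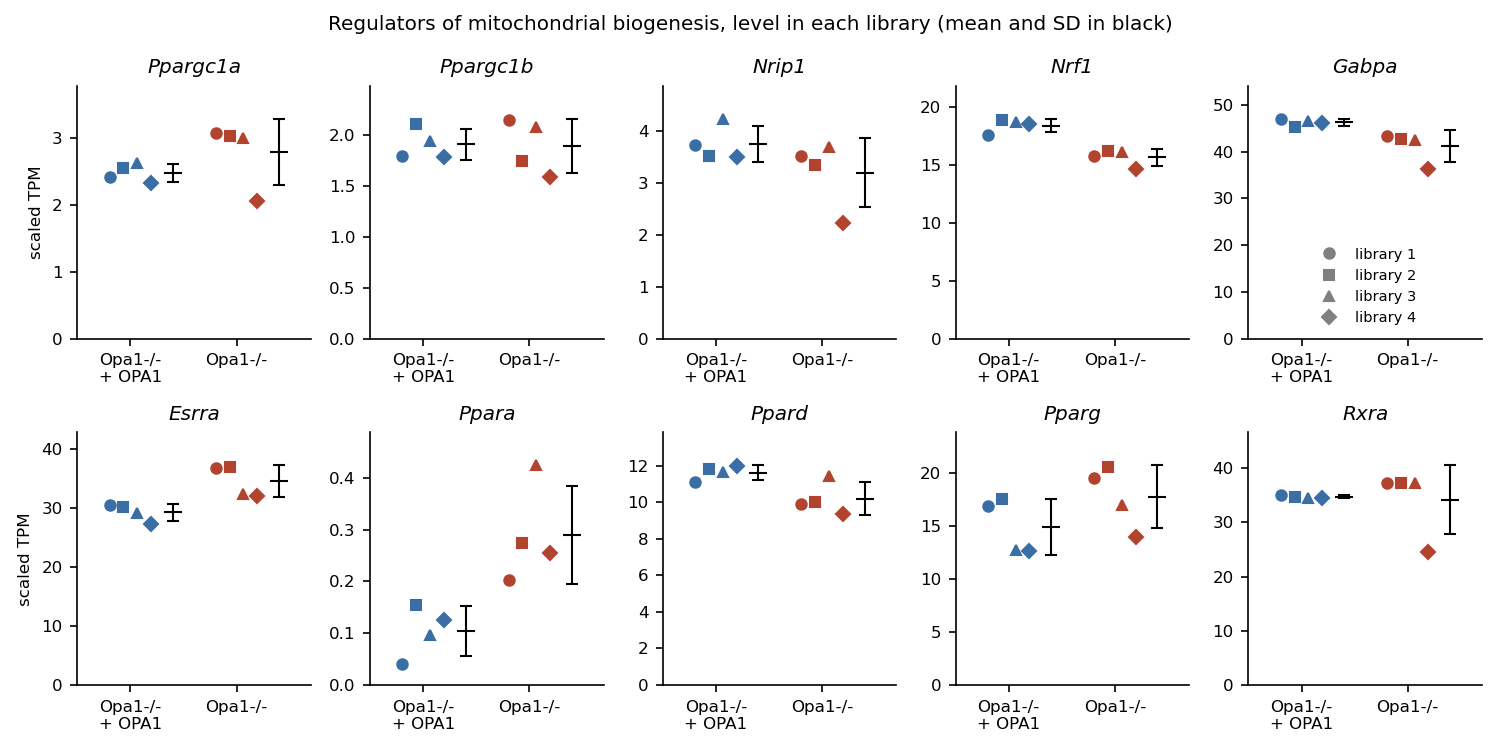
Level of each regulator in each library, in scaled TPM (vertical axis from 0 in each panel), with blue for Opa1-/- + OPA1 and red for Opa1-/-, marker shape giving the library number and black bars the mean and SD of 4 libraries. Nrf1 and Gabpa sit lower and Esrra and Ppara higher in every Opa1-/- library, and the Opa1-/- library 4 is the lowest of its group for Rxra (24.6), Nrip1 (2.24) and Ppargc1a (2.06).

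In the reconstituted libraries the order of levels ran from Gabpa (46.3 ± 0.729 scaled TPM) through Rxra (34.7 ± 0.277), Esrra (29.3 ± 1.42), Nrf1 (18.4 ± 0.576), Pparg (14.9 ± 2.62), Ppard (11.6 ± 0.389), Nrip1 (3.75 ± 0.344), Ppargc1a (2.48 ± 0.133) and Ppargc1b (1.91 ± 0.153) to Ppara (0.105 ± 0.0485). No neighbours in that order overlapped in range there, although the lowest value of Nrf1 (17.55) and the highest of Pparg (17.53) were close. Reads were divided by annotated exon length, 10282 bases for Nrf1 and 2953 for Pparg, so the order depends on these lengths. In the Opa1-/- libraries the ranges of Gabpa and Rxra, Rxra and Esrra, Nrf1 and Pparg, Nrip1 and Ppargc1a, and Ppargc1a and Ppargc1b overlapped. In both groups the DNA-binding factors other than Ppara stood above the coactivators and the corepressor.

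Of the coregulators, Ppargc1a (ENSMUSG00000029167, GRCm38 chr5:51454250-51567726, minus strand) encodes PGC-1alpha, the inducible coactivator of the family. Its level was 3.09, 3.04, 3.01 and 2.06 scaled TPM in Opa1-/- libraries 1 to 4 and 2.43, 2.55, 2.62 and 2.32 in reconstituted libraries 1 to 4. The first 3 Opa1-/- libraries lay above all reconstituted libraries and the library 4 lay below them all. The difference was 0.12 (SE 0.11, 95% interval -0.13 to 0.36, limma adjusted p = 0.451), on 263 to 366 reads per library. Without the Opa1-/- library 4 it was 0.22 (SE 0.07, limma adjusted p = 0.0424), so a single library decided this call.

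Ppargc1b (ENSMUSG00000033871, GRCm38 chr18:61298136-61400431, minus strand) encodes PGC-1beta, the coactivator tied to basal mitochondrial content. It measured 2.14, 1.75, 2.08 and 1.59 scaled TPM in the Opa1-/- libraries and 1.80, 2.11, 1.94 and 1.78 in the reconstituted libraries. The groups were interleaved, with a difference of -0.01 (95% interval -0.23 to 0.21, limma adjusted p = 0.941) whose sign turned in 5 alternatives. With 123 to 156 reads per library, changes inside that interval were not detectable.

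Nrip1 (ENSMUSG00000048490, GRCm38 chr16:76287400-76373827, minus strand) encodes RIP140, the ligand-dependent corepressor of nuclear receptors. It measured 3.52, 3.36, 3.71 and 2.24 scaled TPM in the Opa1-/- libraries and 3.75, 3.53, 4.24 and 3.50 in the reconstituted libraries. The ranges overlapped, and the Opa1-/- library 4 alone was far below the rest. The difference was -0.19 (95% interval -0.47 to 0.09, limma adjusted p = 0.278), and without that library it was -0.07 (limma adjusted p = 0.544).

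Among the DNA-binding factors, Nrf1 (ENSMUSG00000058440, GRCm38 chr6:30047988-30153458, plus strand), the activator of respiratory chain and Tfam promoters, fell. It measured 15.8, 16.2, 16.1 and 14.6 scaled TPM in the Opa1-/- libraries and 17.5, 18.8, 18.7 and 18.5 in the reconstituted libraries. Every Opa1-/- library was below every reconstituted library, at a mean of 85.2% of their level (15.7 ± 0.734 against 18.4 ± 0.576). The difference was -0.22 (SE 0.05, 95% interval -0.33 to -0.11, limma adjusted p = 0.00809), on 2915 to 3617 reads per library. Leaving out any single library kept the call, whereas on TPM without scaling the limma adjusted p was 0.0643.

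Gabpa (ENSMUSG00000008976, GRCm38 chr16:84834925-84863779, plus strand) encodes the ETS-domain subunit of GABP, also called NRF2, and was the most abundant of the 10. It measured 43.4, 42.8, 42.4 and 36.3 scaled TPM in the Opa1-/- libraries and 47.0, 45.3, 46.6 and 46.2 in the reconstituted libraries. The groups did not overlap, and the Opa1-/- mean was 89.1% of the reconstituted mean, yet the difference of -0.17 (SE 0.06, 95% interval -0.30 to -0.04) missed the threshold (limma adjusted p = 0.0534). It passed without the Opa1-/- library 4, at a smaller difference of -0.11 with limma adjusted p = 0.0179, and with limma-voom on recovered reads (adjusted p = 0.0435). It was -0.10 (limma adjusted p = 0.137) once the trend of each library with gene length and GC content was removed.

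Gabpa shares a divergent promoter with Atp5j, which encodes a subunit of ATP synthase and runs the other way. Their nearest RefSeq start sites are 148 bases apart, and the RefSeq promoter windows share 247 bases, the NRF1 palindrome printed above among them. In the annotation 397 exon bases overlap on opposite strands, 6.98% of the exon bases of Gabpa, and the sources do not say whether counting used strand. Atp5j was 102 ± 12.1 scaled TPM in Opa1-/- against 87.4 ± 2.30 in reconstituted libraries, a difference of 0.22 (limma adjusted p = 0.0582) with overlapping ranges, opposite in sign to that of Gabpa. It passed without the Opa1-/- library 3 (limma adjusted p = 0.00684).

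Esrra (ENSMUSG00000024955, GRCm38 chr19:6910977-6921813, minus strand) encodes ERR-alpha, an orphan receptor whose activity depends on PGC-1 coactivators rather than on a known hormone, and it rose. It measured 36.8, 37.0, 32.4 and 32.1 scaled TPM in the Opa1-/- libraries and 30.5, 30.2, 29.2 and 27.3 in the reconstituted libraries. Every Opa1-/- library was above every reconstituted library, at a mean of 118% of their level (34.6 ± 2.68 against 29.3 ± 1.42). The difference was 0.23 (SE 0.06, 95% interval 0.09 to 0.37, limma adjusted p = 0.0192), on 2231 to 2936 reads per library. The limma adjusted p was 0.0516 without the reconstituted library 3, 0.0579 without the reconstituted library 4 and 0.0510 on TPM without scaling. Of its exon bases, 73 overlap Trmt112 on the other strand.

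Of the fatty acid receptors, Ppara (ENSMUSG00000022383, GRCm38 chr15:85734983-85802819, plus strand), the receptor that drives fatty acid oxidation in liver and heart, was near the limit of detection. It measured 0.203, 0.274, 0.424 and 0.255 scaled TPM in the Opa1-/- libraries, from 14, 19, 30 and 19 reads, and 0.0409, 0.154, 0.0969 and 0.126 in the reconstituted libraries, from 3, 11, 7 and 9 reads. All Opa1-/- libraries lay above all reconstituted libraries, and the mean was 2.76 times as high. As Ppara was under the filter, it was tested alone by a two-sided permutation test over the 8 libraries. The difference of 0.22 had an exact p = 0.0286, the smallest that 70 splits can give, and an exact p = 0.0571 without the reconstituted library 1 or 3. With no filter on low values the limma adjusted p over all genes was 0.0410, and with a filter at 0.1 TPM it was 0.0537.

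Ppard (ENSMUSG00000002250, GRCm38 chr17:28232700-28301474, plus strand), the broadly expressed PPAR, measured 9.90, 10.0, 11.5 and 9.37 scaled TPM in the Opa1-/- libraries and 11.1, 11.8, 11.6 and 12.0 in the reconstituted libraries. Opa1-/- libraries 1, 2 and 4 were below all reconstituted libraries and library 3 was among them. The difference was -0.18 (95% interval -0.32 to -0.03, limma adjusted p = 0.0604), and it passed without the Opa1-/- library 3 (limma adjusted p = 0.0131) and with limma-voom (adjusted p = 0.0397).

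Pparg (ENSMUSG00000000440, GRCm38 chr6:115360951-115490399, plus strand), the master regulator of fat cell formation, had the highest scaled TPM of the PPARs. Its reads per library, 695 to 1100 over 2953 exon bases, were fewer than the 1339 to 1676 of Ppard over 7514. Pparg measured 19.5, 20.6, 16.97 and 13.98 scaled TPM in the Opa1-/- libraries and 16.9, 17.5, 12.7 and 12.65 in the reconstituted libraries. Libraries numbered 1 and 2 were the higher ones in both groups and the ranges overlapped, so that the difference of 0.24, as large as that of Esrra, had a 95% interval of -0.08 to 0.56 (limma adjusted p = 0.235). With the replicate number as a block the limma adjusted p was 0.0229.

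Rxra (ENSMUSG00000015846, GRCm38 chr2:27676440-27762957, plus strand), the shared partner of the PPARs, measured 37.3, 37.3, 37.3 and 24.6 scaled TPM in the Opa1-/- libraries and 35.1, 34.7, 34.5 and 34.5 in the reconstituted libraries. Apart from library 4, the Opa1-/- libraries lay above every reconstituted library. The difference was -0.04 (95% interval -0.32 to 0.23, limma adjusted p = 0.817) with it and 0.10 (95% interval 0.04 to 0.16, limma adjusted p = 0.0164) without it.

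**Figure D2:**
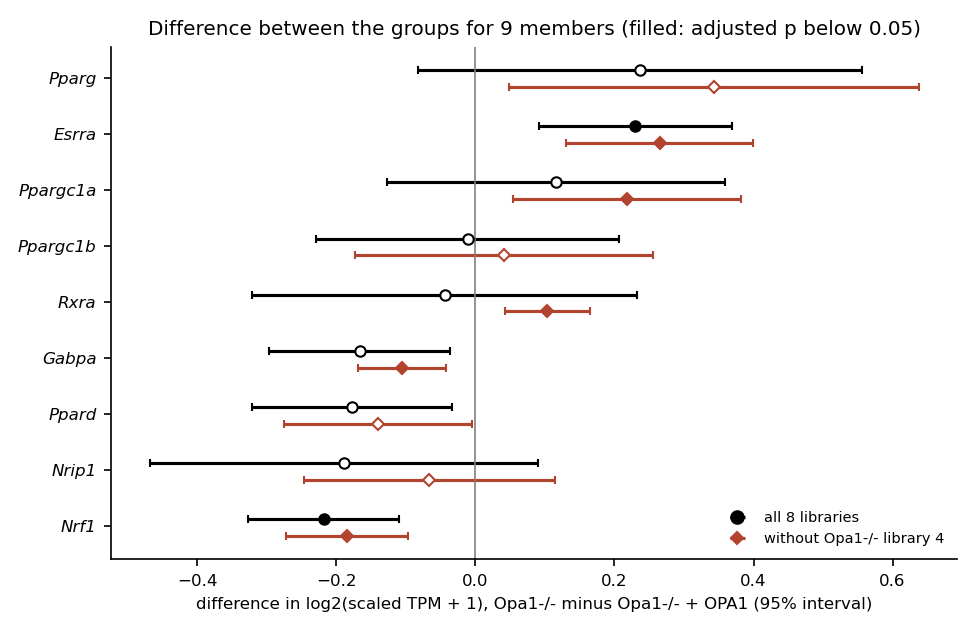
Difference between the groups for the 9 regulators that passed the filter, in log2(scaled TPM + 1), with 95% intervals, from all 8 libraries (black circles) and without the Opa1-/- library 4 (red diamonds), filled where the limma adjusted p was below 0.05. Nrf1 (-0.22) and Esrra (0.23) are filled in both fits, and Ppargc1a, Rxra and Gabpa only without that library.

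In the Opa1-/- library 4, all 9 genes were below the mean of their other Opa1-/- libraries, by -0.13 for Nrf1 and Esrra to -0.58 for Rxra in log2(scaled TPM + 1), where the median over all tested genes was 0.00. Across 9406 genes, which are not independent replicates, the level of a gene in that library relative to the mean of its group went down with exon length (Spearman rho = -0.46), while in the Opa1-/- library 3 it went up (0.47), and in the reconstituted libraries rho lay between -0.27 and 0.24. With the trend along length and GC content removed, the difference of Nrf1 was -0.14 (limma adjusted p = 0.0268) and that of Esrra 0.27 (limma adjusted p = 0.00708), both on the same side of the threshold.

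The variation of libraries around their group means was shared by many of the 10 genes. As a description over 8 libraries, Gabpa and Rxra had a Pearson r of 0.98, Ppargc1a and Rxra of 0.96 and Ppargc1a and Nrip1 of 0.94, values to which the Opa1-/- library 4 contributes in each. Esrra went with Pparg (r = 0.85) and not with Ppard (r = -0.32). Among 9476 genes, those most like Esrra in this respect were Colec12 (r = 0.997), Ddx46 (0.99) and D17H6S53E (0.99), and those most like Nrf1 were Rnf168 (0.99), Btbd9 (0.98) and Tmem248 (0.97). These are the extremes of a search among many genes over few libraries, and whether they exceed chance was not tested.

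The close relatives and partners of these genes were mostly not called. Of 5 tested, 1 (20%) was lower, against 16.8% of all tested genes, and none was higher, with a median of -0.13. The lower gene was Pprc1, the serum-responsive PGC-1-related coactivator, which was far more abundant than its relatives Ppargc1a and Ppargc1b at 69.5 ± 2.74 scaled TPM against 76.0 ± 2.55 (difference -0.13, limma adjusted p = 0.0451). Its call was lost without any of 6 single libraries (limma adjusted p 0.0533 to 0.129). The alternative GABP partner subunits Gabpb1 (17.9 ± 0.962 against 19.99 ± 0.944) and Gabpb2 (22.0 ± 3.04 against 25.9 ± 0.392) had non-overlapping groups and limma adjusted p of 0.0552 and 0.0714. Gabpb1 passed without the reconstituted library 1 (limma adjusted p = 0.0464) and Gabpb2 without the Opa1-/- library 4 (0.0111). Rxrb was 70.3 ± 4.14 against 66.4 ± 1.06 (limma adjusted p = 0.225, or 0.0151 without the Opa1-/- library 4). Esrrb, Esrrg and Rxrg were near 0 in both groups, so that Esrra was the only ERR gene, of these 3, above 1 TPM.

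Of 26 listed genes that control the PGC-1 axis from above, 24 were tested, and 2 (8.33%) were higher and 4 (16.7%) lower. Their median was -0.04, and both shares were at or below the 16.3% and 16.8% of all tested genes. Under the filter were Mef2c and Prkaa2, named after their values were seen. Mef2c was 0.234 ± 0.0283 scaled TPM in Opa1-/- against 0.646 ± 0.0414 in reconstituted libraries, without overlap, on 62 to 199 reads. Prkaa2 was 0.778 ± 0.193 against 0.955 ± 0.0554, with overlapping ranges. Foxo1, the insulin-restrained activator of Ppargc1a transcription, rose from 1.58 ± 0.201 to 2.53 ± 0.444 scaled TPM (difference 0.44, limma adjusted p = 0.0170), and the acetyltransferase Kat2a was the other gene that rose. Creb1, which carries the cyclic AMP signal, fell from 15.8 ± 0.789 to 13.2 ± 0.776 (-0.25, limma adjusted p = 0.00915). The deacetylase Sirt1, named after its values were seen, fell from 31.6 ± 1.12 to 27.1 ± 1.48 (-0.22, limma adjusted p = 0.00951). Prkab2, a regulatory subunit of the energy sensor AMPK, fell from 8.26 ± 0.422 to 6.73 ± 0.557 (-0.26, limma adjusted p = 0.0172, or 0.0517 without the reconstituted library 1). Tfe3, a lysosomal and metabolic transcription factor on chromosome X, fell from 22.5 ± 0.808 to 16.6 ± 1.23 (-0.42, limma adjusted p = 0.000808), but the difference was -0.07 (limma adjusted p = 0.391) once chromosome medians were removed. For Creb1 it was -0.14 (limma adjusted p = 0.0725) with the length and GC trend removed.

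Of 15 nuclear receptor coregulators, 2 (13.3%) were higher and 2 (13.3%) lower, with a median of -0.02, both shares below those of all tested genes (16.3% and 16.8%). The coactivators Ncoa3 (21.8 ± 0.740 to 17.4 ± 2.09, difference -0.31, limma adjusted p = 0.0152) and Ncoa6 (20.4 ± 0.558 to 17.9 ± 1.38, -0.19, limma adjusted p = 0.0360) fell. Tbl1xr1, an exchange factor for corepressors, rose from 11.8 ± 0.594 to 13.8 ± 0.880 (0.21, limma adjusted p = 0.0209). The arginine methyltransferase Prmt1 rose from 321 ± 12.4 to 352 ± 14.4 (0.13, limma adjusted p = 0.0439), but with chromosome medians removed its difference was 0.02 (limma adjusted p = 0.757). The calls of Ncoa6 and Prmt1 were each lost without any of 6 single libraries, and that of Tbl1xr1 without any of 3, the reconstituted libraries 1, 3 and 4.

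Of the 24 known targets of NRF1 and GABP, 4 (16.7%) were higher and 3 (12.5%) lower, near the 16.3% and 16.8% of all tested genes, with a median of 0.10. Surf1, an assembly factor of cytochrome c oxidase, rose from 39.1 ± 2.26 to 45.5 ± 1.77 scaled TPM (difference 0.21, limma adjusted p = 0.0106). Ssbp1, the mitochondrial single-stranded DNA binding protein, rose from 24.8 ± 0.835 to 30.1 ± 3.54 (0.26, limma adjusted p = 0.0273). The import genes Tomm20 (148 ± 2.84 to 129 ± 5.80, -0.19, limma adjusted p = 0.00601) and Tomm34 (27.5 ± 1.29 to 23.6 ± 1.44, -0.22, limma adjusted p = 0.0162) fell. Tfam, which packages and transcribes mitochondrial DNA and was named after its values were seen, rose from 45.8 ± 1.49 to 50.9 ± 2.93 (0.15, limma adjusted p = 0.0409). Sdhd also rose and the mitochondrial DNA polymerase gene Polg fell. For Tomm20 the difference was -0.01 (limma adjusted p = 0.927) with chromosome medians removed. The number called higher ran from 1 to 8 over single libraries left out, 8 of them without the Opa1-/- library 3 and 1 without the Opa1-/- library 2 or the reconstituted library 1, 3 or 4. The call of Tfam was lost without any of 6 libraries and that of Ssbp1 without any of 4.

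Of 14 tested ERR-alpha targets, Esrra itself among them, 5 (35.7%) were higher and 1 (7.14%) was lower, against 16.3% and 16.8% of all tested genes, with a median of 0.05. Vegfa, an angiogenic growth factor, rose from 50.8 ± 0.544 to 70.9 ± 3.28 scaled TPM (difference 0.47, limma adjusted p = 6.85e-05). Acadm, the medium-chain acyl-CoA dehydrogenase, rose from 27.2 ± 1.33 to 37.3 ± 1.90 (0.44, limma adjusted p = 0.000351), and Mdh2, malate dehydrogenase of the tricarboxylic acid cycle, from 267 ± 3.93 to 301 ± 13.9 (0.17, limma adjusted p = 0.0101). The difference of Mdh2 was 0.11 (limma adjusted p = 0.0894) with chromosome medians removed. Pdk4, the kinase that shuts off pyruvate dehydrogenase, fell from 352 ± 31.2 to 266 ± 39.1 (-0.41, limma adjusted p = 0.0160). Without the Opa1-/- library 4, 6 were higher and 3 lower, where 18.4% and 19.6% of 13949 tested genes were called. The lists are not independent, as Acadm and Pdk4 are also counted among the PPAR targets and Cycs, not called, among those of NRF1 and GABP.

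**Figure D3:**
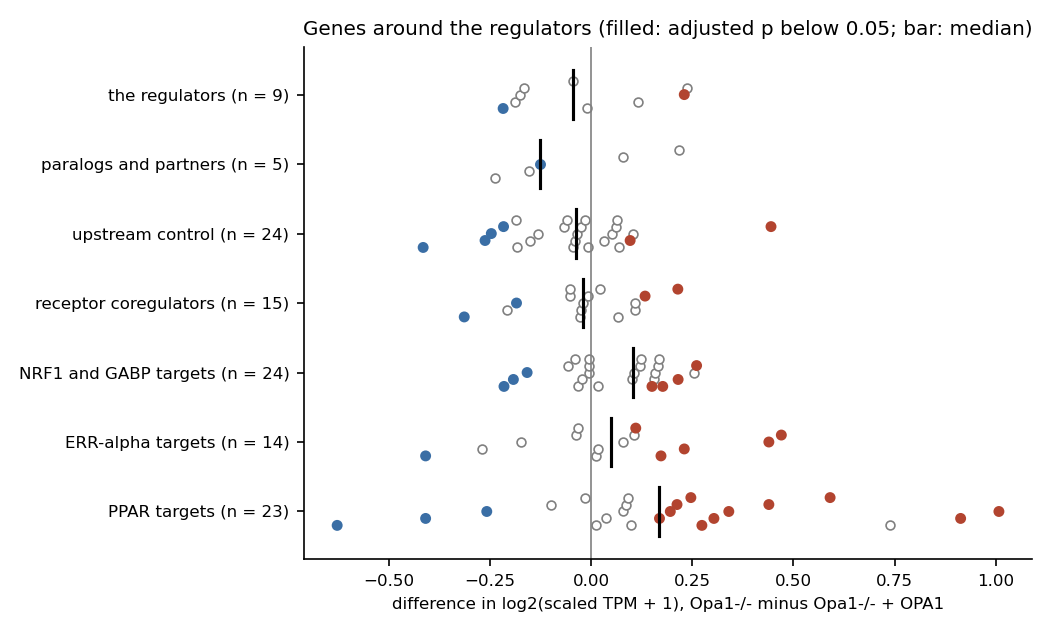
Difference between the groups in log2(scaled TPM + 1) for each tested gene (points) of the regulators and of 6 lists of genes around them, with the list median as a black bar, and points filled red (higher) or blue (lower) where the limma adjusted p was below 0.05. Medians run from -0.13 in paralogs and partners to 0.17 in PPAR targets, and filled points of both colours occur in each list except paralogs and partners, which holds 1 lower gene.

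PPAR targets held the largest share of calls among these lists. Of 33 listed, 23 were tested, 11 (47.8%) were higher and 3 (13.04%) lower in Opa1-/-, against 16.3% and 16.8% of all tested genes, and the median difference was 0.17. The acyl-CoA thioesterases Acot1 and Acot2 rose furthest, Acot1 from 3.77 ± 0.291 to 8.62 ± 1.02 scaled TPM (1.01, limma adjusted p = 8.11e-05) and Acot2 from 3.59 ± 0.354 to 7.66 ± 0.885 (0.91, limma adjusted p = 0.000144). They are near-identical neighbours, so how reads were shared between them is uncertain. Ech1, an enoyl-CoA isomerase, rose from 26.6 ± 1.60 to 40.5 ± 2.44 (0.59, limma adjusted p = 0.000140). The other 8 that rose were Acadm, Slc25a20, Acaa1a, Cpt1a, Decr1, Acaa2, Acadl and Acadvl, which encode the carnitine shuttle and steps of fatty acid breakdown in mitochondria or, for Acaa1a, in peroxisomes. Of these 8, all but Acadm were named after their values were seen, as was Plin2 among those that fell.

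The 3 that fell were Angptl4, Pdk4 and Plin2, classical PPAR targets that act outside the breakdown pathway itself. Angptl4, the secreted inhibitor of lipoprotein lipase, fell from 8.12 ± 1.19 to 4.95 ± 1.23 scaled TPM (-0.63, limma adjusted p = 0.0118), and Plin2, a coat protein of lipid droplets, from 98.8 ± 0.769 to 82.5 ± 2.58 (-0.26, limma adjusted p = 0.000625). Without the Opa1-/- library 4 the counts were again 11 higher and 3 lower, where 18.4% and 19.6% of 13949 tested genes were called. The number higher was 7 without both libraries numbered 3 and 7 on TPM without scaling. Among the 10 targets under the filter, and so outside the main fit, were Cd36, Lpl and Fabp4, genes typical of fat cells. Every Opa1-/- library lay above every reconstituted library for Lpl (0.417 ± 0.0130 against 0.149 ± 0.0297 scaled TPM, 22 to 84 reads). The same held for Fabp4 (0.448 ± 0.0977 against 0.241 ± 0.0718, 12 to 44 reads). For Cd36 the ranges overlapped (0.0825 ± 0.0391 against 0.0518 ± 0.0141).

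**Figure D4:**
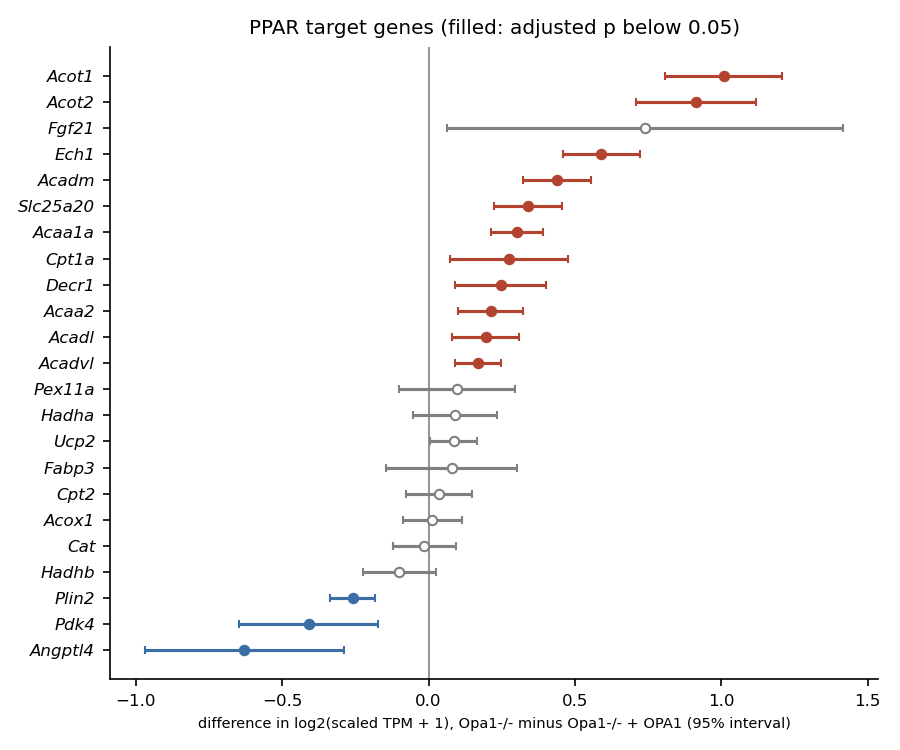
Difference between the groups in log2(scaled TPM + 1), with 95% intervals, for the 23 tested PPAR targets, filled red (higher) or blue (lower) where the limma adjusted p was below 0.05. Acot1 (1.01) and Acot2 (0.91) are at the top, and Angptl4 (-0.63), Pdk4 (-0.41) and Plin2 (-0.26) at the bottom.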

How the data were processed

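RNA was sequenced from 8 libraries of immortalized MEFs, 4 per group, grouped by the genotype in the labels. Libraries were made with NEBNext Ultra II, per the labels' protocols. The submitters' processing notes name STAR 2.5.2b, Subread 1.5.2, featureCounts and bcl2fastq 2.17 as tools and GRCh38 and mm10 as builds, without roles. The strand setting of the counting is not given in the sources used. The authors deposited TPM values per gene, per the file headers.

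Reads were recovered from the TPM steps with exon lengths of GENCODE M21 (GRCm38), which held 49056 of 49315 identifiers. Of the low values, 95.3% to 95.6% were whole within 0.05 of a read. 174 genes had no name. Scaling factors were trimmed means of log ratios, after trimming 30% of ratios and 5% of levels from either end. Genes reaching 1 TPM in 4 or more libraries entered limma-trend (limma 3.58.1, R 4.3.3, two-sided) on log2(scaled TPM + 1) and were called at an adjusted p below 0.05. Limma-voom on recovered reads called 2454 genes higher and 2539 lower, where limma-trend called 2322 and 2392. The procedure was tested on simulated data with independent noise in each gene. Those data held none of the trends across whole libraries seen here, so that test does not speak to calls made under them. Tables and figures were made with Python 3.11.15 (pandas 2.3.3, numpy 2.4.6, matplotlib 3.10.9, scipy 1.17.1).

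No libraries agreed within sampling noise (lowest chi-square per degree of freedom 4.40). Small and ribosomal RNA genes took 5.29% to 15.5% of the TPM, least in both libraries numbered 3, and mitochondrially encoded genes 2.67% to 3.35% in Opa1-/- against 5.33% to 5.77% in reconstituted libraries, which moves all other TPM values. The 10 genes, the 6 lists around them and the 6 marker lists were chosen with earlier results of these data known, so no list was tested. Named genes are the 10, their close relatives, up to 4 called genes per list with the largest difference, the most abundant marker per list and, for each called regulator, the 3 genes most alike within groups. Alternatives were other scalings, filters and pseudocounts, a replicate block, length and GC trends or chromosome medians removed, fewer genes, and libraries left out.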

Additional observations from a re-analysis of the deposited data

Results flagged for a closer look

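In 9 of 90 groups of 4 libraries, over 45 genes, the highest or lowest library lay far from the other 3 by Dixon's criterion, which chance alone meets in about 1 group in 20. Of these, 5 were the Opa1-/- library 4: Ppargc1a at 2.06 scaled TPM (next 3.01), Gabpa at 36.3 (next 42.4), Rxra at 24.6 (next 37.3), Gabpb2 at 17.5 (next 23.1) and Vim at 1574 (next 1368), the last being high and the rest low. The others were Opa1 at 15.6 in the reconstituted library 1 (next 14.6), Creb1 at 14.3 in the Opa1-/- library 3 (next 12.9), Acadm at 34.4 in the Opa1-/- library 1 (next 37.9) and Ech1 at 24.2 in the reconstituted library 4 (next 27.2). No other library stood apart by this criterion in the 10 regulators.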

How the results depend on the processing

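Over all genes, the number called higher was 1530 without both libraries numbered 3, and the number called lower was 1529 on TPM without scaling. Leaving out single libraries gave 1726 to 2572 higher and 1795 to 2731 lower. Of the regulators, none was called in either direction on TPM without scaling (0 and 0). With no filter on low values 2 were called higher, as also with the replicate block and with the block and the length and GC trend removed (2 each). With limma-voom 3 were called lower, as with protein-coding genes only (3), and with both libraries numbered 3 left out 2. Leaving out single libraries gave 0 to 3 higher and 1 to 2 lower, and for Ppara a difference of 0.17 to 0.25. On TPM without scaling the calls of Nrf1, Esrra, Pprc1, Prkab2, Creb1, Sirt1, Ncoa3, Ncoa6, Prmt1, Tomm34, Surf1 and Tfam were lost (limma adjusted p 0.0510 to 0.264), and without both libraries numbered 3 those of Pprc1, Foxo1, Prkab2, Sirt1, Tbl1xr1, Ncoa6, Prmt1, Ssbp1 and Tfam (0.0501 to 0.101).

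Over all 22 alternatives, higher and lower calls ran from 0 to 1 and 0 to 3 in partners, 0 to 3 and 1 to 6 in upstream genes, 0 to 3 and 0 to 2 in coregulators, 1 to 8 and 1 to 3 in NRF1 and GABP targets, 3 to 6 and 1 to 3 in ERR-alpha targets, and 7 to 13 and 3 to 3 in PPAR targets.

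Same-numbered libraries deviated together weakly (r = 0.05, 0.10, 0.14 and 0.01), yet 7 of 8 libraries correlated best with their own number. The main fit did not take the numbers as pairs, and whether they mark shared handling is not known. The replicate block gave 2362 higher and 2395 lower over all genes. It matters for Pparg, whose limma adjusted p was 0.235 without the block and 0.0229 with it.

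The sign turned for Ppargc1b with upper-quartile scaling (0.0091) and with chromosome medians removed (0.016), and leaving out single libraries gave -0.052 (Opa1-/- library 1) to 0.042 (Opa1-/- library 4), above 0 also without library 2 of either group. Rxra ran from -0.092 (without the Opa1-/- library 3) to 0.10, and Vim from -0.0079 to 0.067, each turning only without the Opa1-/- library 4. For Krt18 the sign turned with the length and GC trend removed, with the replicate block and without it (-0.029), and leaving out single libraries gave -0.043 to 0.14, below 0 without the Opa1-/- library 4 or the reconstituted library 3 or 4. The cause was not tested. Precision is lowest for Ppara, with 3 to 30 reads per library, and what limits the other genes was not tested.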
